A study of Mus musculus with 8 samples.

Results

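Neutrophils leave the blood along gradients of CXC chemokines that bind the receptor CXCR2 on their surface, and granulocyte colony-stimulating factor (G-CSF) promotes their production in bone marrow and their survival in tissue. Epithelial cells, stromal cells and macrophages make these chemokines when NF-kappaB is activated, and neutrophil numbers in the uterus vary over the estrous cycle. The 10 genes described here encode the CXCR2 ligands *Cxcl1*, *Cxcl2*, *Cxcl3* and *Cxcl5*, the receptor *Cxcr2*, G-CSF (*Csf3*) and its receptor (*Csf3r*), and the CC chemokines *Ccl3*, *Ccl4* and *Ccl20*. They were taken by symbol from the 52325 genes of the deposited count table, and 10 of 10 had a row and passed the filter on low counts, among 18174 genes that passed it.

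Endometrium was isolated by laser capture from frozen sections of WT and *Thra1*PV/+ uterus, and its RNA was sequenced, with 4 libraries of each genotype (below, WT and PV libraries). In *Thra1*PV/+ mice 1 *Thra* allele has the PV mutation, which gives a dominant negative thyroid hormone receptor alpha 1. The mutation is a germline knock-in and so is present in every cell type, and all mice were brought to metestrus. The age of these mice is not given in the sources used here. Counts summed to between 48791602 and 59818887 per library. Levels are CPM, the estimated counts scaled to library size after TMM normalization. Genotypes were compared with edgeR's quasi-likelihood test, log2 fold changes carry their standard error (SE), and calls needed at least a 2-fold change together with a Benjamini-Hochberg adjusted p of at most 0.1. The mice numbered 4 for each genotype, as did the libraries, and the p-values measure the spread between these libraries.

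Libraries of the same genotype lay far apart for these genes. PV library 2 had the highest level of all 8 libraries for 10 of 10 genes. WT library 4 had the highest level among WT libraries for 10 of 10 genes. WT library 2 had the lowest level of its genotype for 7 of 10 and the lowest of all 8 libraries for 6. The mean log2 CPM over the 10 genes was 3.11, 6.15, 3.68 and 2.42 in PV libraries 1 to 4 and 1.89, -0.15, 2.10 and 4.05 in WT libraries 1 to 4. By these means, WT libraries 2 and 4 lay about equally far from the WT library nearest to each, below and above. Fold changes below are also given without PV library 2, without WT library 4 or without both. Leaving out each library in turn was planned. The choice to show these fits, and the fit without both, came after the values were seen.

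The genotypes were not separated for any of the 10 genes. The count of genes with all 4 PV libraries above all 4 WT libraries was 0 of 10, against 3.55% of tested genes. The edgeR quasi-likelihood test called 0 of 10 higher in PV endometrium, against 0.924% of tested genes. At an unadjusted p under 0.05 in the same test, 5 of 10 were higher (*Cxcl3*, *Cxcr2*, *Csf3r*, *Ccl3* and *Ccl4*), against 5.05% of tested genes, and 0 of 10 were lower, against 4.72%. DESeq2 called 4 of 10 higher (*Cxcl3*, *Csf3r*, *Ccl3* and *Ccl4*), against 2.72% of tested genes, and gave no adjusted p-value for *Cxcl1* and *Cxcl2*. Without the filter on low counts, a choice added after the data were seen, it called the same 4 genes. The log2 fold change was above 0 for 9 of 10 genes, against 43.2% of tested genes. These genes and the gene lists below were chosen with earlier results of these data known. The 10 genes also varied together (median Pearson's r of 0.784 over 45 pairs), so these are not counts of independent genes. For the log2 fold change, the values over the 10 genes as a set follow. The median log2 fold change over the 10 genes was 2.02, beside -0.05 over all tested genes. The median was 0.61 without PV library 2, 2.99 without WT library 4, 1.89 without both and 1.80 without WT library 2.

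**Figure D1:**
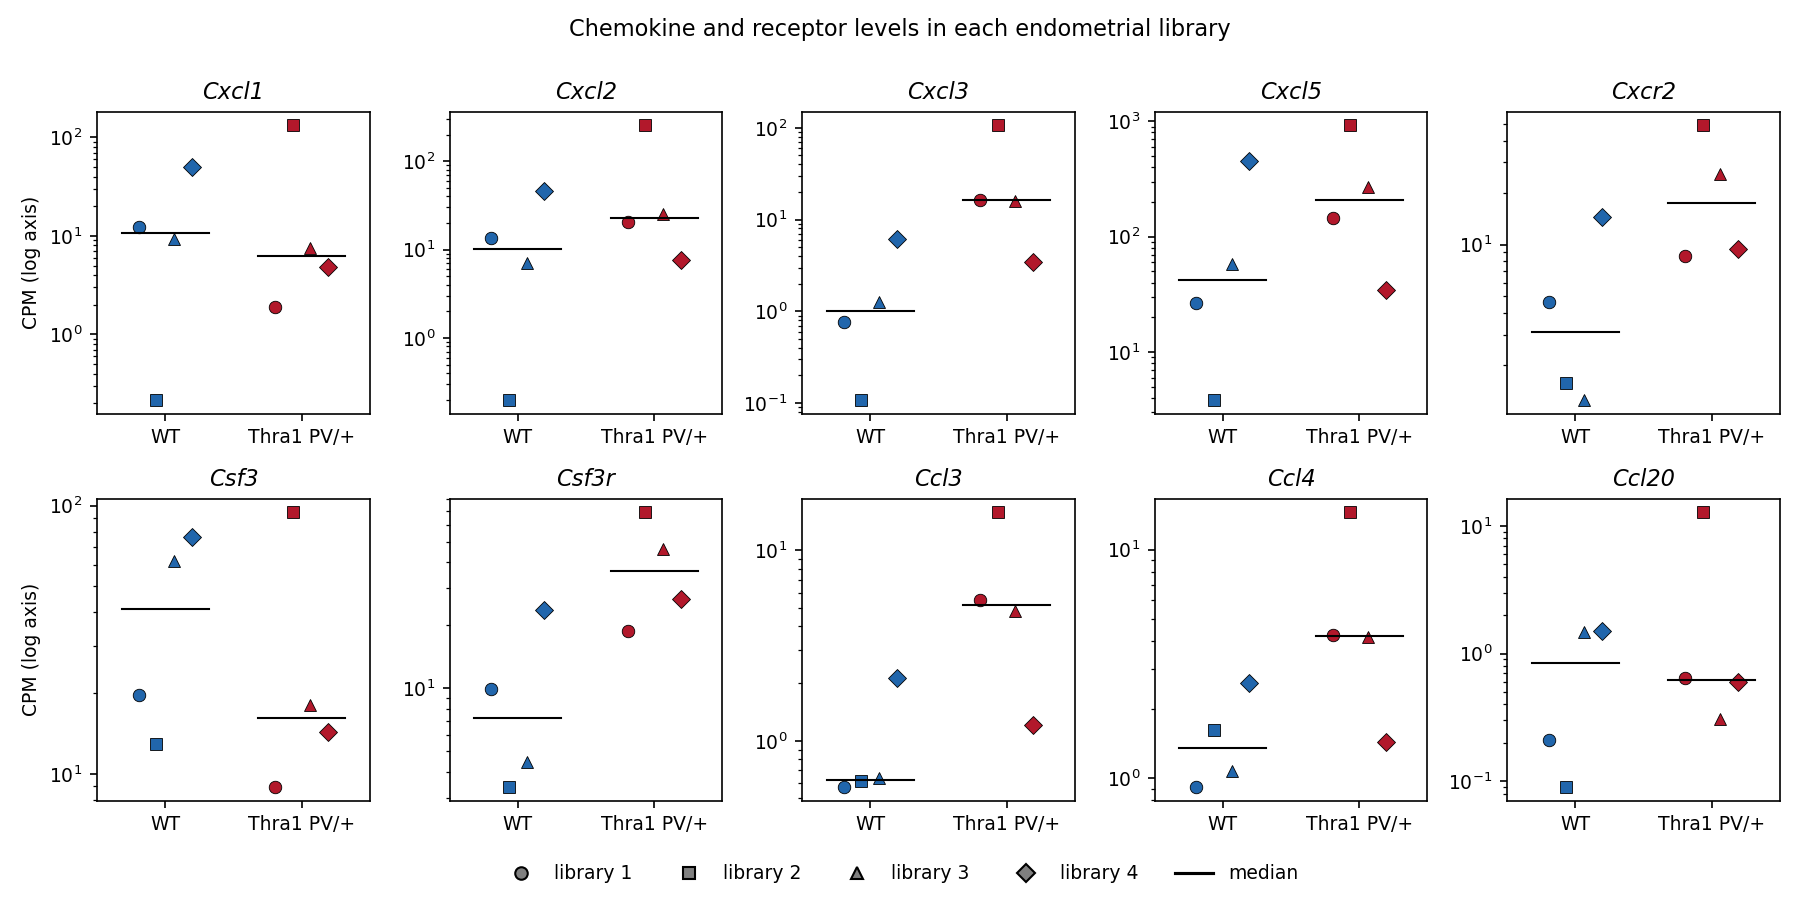
CPM of each of the 10 genes (log axis) in the 4 WT and 4 PV libraries; symbols give the library number and lines the median of a genotype. PV library 2 is the highest library in each panel and WT library 4 the highest WT library.

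CXCL1, CXCL2, CXCL3 and CXCL5 are secreted ligands of CXCR2, and sums and shares of the 4 ligands below refer to these genes. Their genes lie on chromosome 5 (GRCm38) in the order *Cxcl5* (chr5:90759360-90761624), *Cxcl3* (chr5:90786103-90789600), *Cxcl1* (chr5:90891241-90893115) and *Cxcl2* (chr5:90903871-90905938), all on the plus strand. The 120 bases before the RefSeq start sites of *Cxcl1*, *Cxcl2* and *Cxcl3* are shown, since these genes of the cluster had RefSeq windows. Pearson's r of their log2 CPM over the 8 libraries was between 0.673 and 0.900. The median over all 45 pairs of the 10 genes was 0.784, so this was not particular to them. RefSeq and GENCODE starts differ, so that the sequence of *Cxcl1* runs 4 bases and that of *Cxcl2* 28 bases past the gene start given above. Capitals mark matches to the NF-kappaB consensus on either strand, which overlap on the 2 strands in each of these sequences, and to TATAAA. The sequences are from RefSeq (GRCm38.p6), 5′ to 3′ on the plus strand.
*Cxcl1*, chr5:90891125-90891244: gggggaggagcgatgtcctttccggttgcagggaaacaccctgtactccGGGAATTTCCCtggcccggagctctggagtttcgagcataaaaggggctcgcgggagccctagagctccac
*Cxcl2*, chr5:90903779-90903898: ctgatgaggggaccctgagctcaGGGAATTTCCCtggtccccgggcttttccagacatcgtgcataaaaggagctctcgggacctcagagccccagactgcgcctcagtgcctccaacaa
*Cxcl3*, chr5:90785981-90786100: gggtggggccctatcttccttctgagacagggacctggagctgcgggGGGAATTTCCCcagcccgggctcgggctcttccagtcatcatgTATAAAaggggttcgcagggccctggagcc
The first plus-strand base of the NF-kappaB match is at -71 in *Cxcl1*, -97 in *Cxcl2* and -73 in *Cxcl3*, counted from the RefSeq start site. RefSeq windows of 300 bases around the start were matched for 7 of the 10 genes. The NF-kappaB consensus was found on either strand in 5 of these 7 (*Cxcl1*, *Cxcl2*, *Cxcl3*, *Csf3r* and *Ccl20*), beside 9.55% of 27025 genes with such windows. The matches in *Cxcl1*, *Cxcl2* and *Cxcl3* have the same letters and lie in 1 gene cluster. They may therefore not be independent, and the 5 of 7 was not tested against the 9.55%. The AP-1 motif TGANTCA was found in 0 of 7, beside 8.97% of genes, and TATAAA in 1 of 7, beside 15.7%. A match describes the letters only, and binding was not tested.

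*Cxcl3* had the largest log2 fold change of the 10 genes over the 8 libraries. It stood at 16.3, 107, 16.1 and 3.45 CPM in PV libraries 1 to 4 and at 0.76, 0.11, 1.25 and 6.13 CPM in WT libraries 1 to 4. PV libraries 1, 2 and 3 lay above every WT library, and PV library 4 lay below WT library 4. It averaged 35.6 ± 47.7 CPM (SD, n = 4) over PV libraries and 2.06 ± 2.75 CPM (SD, n = 4) over WT libraries, and edgeR put the log2 fold change at 4.11 (SE 1.37, adjusted p = 0.363). It was 2.53 without PV library 2, 5.65 without WT library 4 and 4.08 without both. DESeq2 gave an adjusted p of 0.0127, and adjusted p-values over all alternatives ran from 0.0111 to 0.746. In WT library 2 the gene had 6 counts, so its level there rests on few reads.

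*Cxcl5*, a chemokine made mainly by epithelial cells, had the highest level per transcript length of the 10 genes by mean TPM, in each genotype. Its level was 144, 925, 269 and 34.7 CPM in PV libraries 1 to 4 and 26.5, 3.85, 58.5 and 450 CPM in WT libraries 1 to 4. WT library 4 lay above PV libraries 1, 3 and 4, so that the genotypes overlapped over most of their range. PV against WT, it gave a log2 fold change of 1.35 (SE 1.37 and adjusted p = 0.817 in edgeR), with 0.14 without PV library 2 and 3.53 without WT library 4. Without both it was 2.33 (SE 1.08).

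*Cxcl2* is induced early in macrophages and epithelium. It measured 20.5, 256, 25.0 and 7.65 CPM in PV libraries 1 to 4 and 13.5, 0.20, 7.04 and 46.5 CPM in WT libraries 1 to 4. Only PV library 2 lay above WT library 4. The log2 fold change of 2.20 (SE 1.46 and adjusted p = 0.681 in edgeR) was 0.08 without PV library 2, 3.48 without WT library 4 and 1.36 without both.

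*Cxcl1* encodes the mouse chemokine also called KC. Its values were 1.91, 133, 7.50 and 4.89 CPM in PV libraries 1 to 4 and 12.3, 0.22, 9.25 and 50.2 CPM in WT libraries 1 to 4. PV libraries 1, 3 and 4 lay below 3 of 4 WT libraries, and PV library 2 lay above all of them. In edgeR's fit the log2 fold change was 1.03 (SE 1.55, adjusted p = 0.887) and turned to -1.92 without PV library 2 and to -0.61 without both libraries. It was 2.34 without WT library 4. With all 8 libraries and the replicate number as a block it was -0.93, so the direction for *Cxcl1* depended on PV library 2 and on the model.

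Transcripts of *Cxcl2* and *Cxcl3* have 161 sequences of 31 bases in common, which is 7.59% of those of *Cxcl2* and part of the 5.46% of *Cxcl3* found in other genes. *Cxcl1* has 0 in common with any other gene in GENCODE M21. Some reads of *Cxcl2* and *Cxcl3* could therefore be assigned to either, and their separate levels are uncertain to that extent.

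CXCR2 carries the response of neutrophils to these ligands. *Cxcr2* (chr1:74153989-74161246) stood at 8.61, 49.3, 25.6 and 9.42 CPM in PV libraries 1 to 4 and at 4.66, 1.57, 1.25 and 14.6 CPM in WT libraries 1 to 4. WT library 4 lay above PV libraries 1 and 4, and the other 3 WT libraries lay below all PV libraries. Set against WT endometrium, its log2 fold change was 2.08 (SE 0.90 and adjusted p = 0.509 in edgeR). It was 1.40 without PV library 2, 3.22 without WT library 4 and 2.54 without both. Of the 31-base sequences of *Cxcr2* transcripts, 7.70% also occur in other genes, with *Dnajb14* sharing the most. In bulk tissue, more neutrophils and more receptor RNA per neutrophil cannot be told apart.

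*Csf3r* (chr4:126024550-126044440) encodes the G-CSF receptor of neutrophils and their precursors. It measured 18.7, 69.4, 46.2 and 26.7 CPM in PV libraries 1 to 4 and 9.96, 3.38, 4.46 and 23.6 CPM in WT libraries 1 to 4. PV library 1 was the only PV library below WT library 4. From these values edgeR estimated a log2 fold change of 1.96 (SE 0.68, adjusted p = 0.381), with 1.56 without PV library 2 and 2.76 without WT library 4. DESeq2 gave an adjusted p of 0.0749, and adjusted p-values over all alternatives ran from 0.0749 to 0.748. Of the 31-base sequences of *Csf3r* transcripts, 23.1% also occur in other genes, most of them in AC105061.2, for which no counts were used here.

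*Csf3* (chr11:98701263-98703629) encodes G-CSF itself. It stood at 8.94, 94.4, 18.1 and 14.3 CPM in PV libraries 1 to 4 and at 19.8, 12.9, 62.2 and 76.4 CPM in WT libraries 1 to 4. PV libraries 1, 3 and 4 lay below 3 of 4 WT libraries, and PV library 2 was the highest of all. *Csf3* was the only gene of the 10 with a log2 fold change below 0, at -0.34 (SE 0.84 and adjusted p = 0.941 in edgeR). It was -1.64 without PV library 2, 0.10 without WT library 4, 0.03 without PV library 1 and -1.20 without PV library 2 and WT library 4.

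CCL3 and CCL4 bind receptors of monocytes, T cells and neutrophils. Their genes are neighbours on chromosome 11 (chr11:83647844-83649355 on the minus strand and chr11:83662584-83664683 on the plus strand). *Ccl3* measured 5.51, 15.9, 4.78 and 1.21 CPM in PV libraries 1 to 4 and 0.57, 0.61, 0.64 and 2.13 CPM in WT libraries 1 to 4. PV libraries 1, 2 and 3 lay above all WT libraries, and PV library 4 lay between WT library 4 and the rest. Between genotypes this came to a log2 fold change of 2.79 (SE 0.81 and adjusted p = 0.287 in edgeR), the lowest adjusted p of the 10 genes. It was 1.95 without PV library 2, 3.49 without WT library 4 and 2.65 without both. DESeq2 gave an adjusted p of 0.0106, and the alternatives ranged from 0.0096 to 0.603 in adjusted p.

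*Ccl4* had 4.24, 14.6, 4.15 and 1.44 CPM in PV libraries 1 to 4 and 0.92, 1.62, 1.07 and 2.62 CPM in WT libraries 1 to 4. As for *Ccl3*, PV libraries 1, 2 and 3 lay above the WT libraries and PV library 4 lay among them. PV against WT, it gave a log2 fold change of 1.97 (SE 0.70 and adjusted p = 0.396 in edgeR), with 1.07 without PV library 2 and 2.34 without WT library 4. DESeq2 gave an adjusted p of 0.0815, and adjusted p-values over the alternatives ran from 0.0801 to 0.793.

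CCL20 attracts cells that carry CCR6, such as subsets of dendritic cells, B cells and T cells, rather than neutrophils. *Ccl20* (chr1:83116766-83119167) was found at 0.64, 12.8, 0.31 and 0.60 CPM in PV libraries 1 to 4 and at 0.21, 0.09, 1.47 and 1.51 CPM in WT libraries 1 to 4. A single library, PV library 2, was far above the rest. The log2 fold change of 2.13 (SE 1.39 and adjusted p = 0.676 in edgeR) turned to -0.67 without that library and to -0.19 without both PV library 2 and WT library 4.

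**Figure D2:**
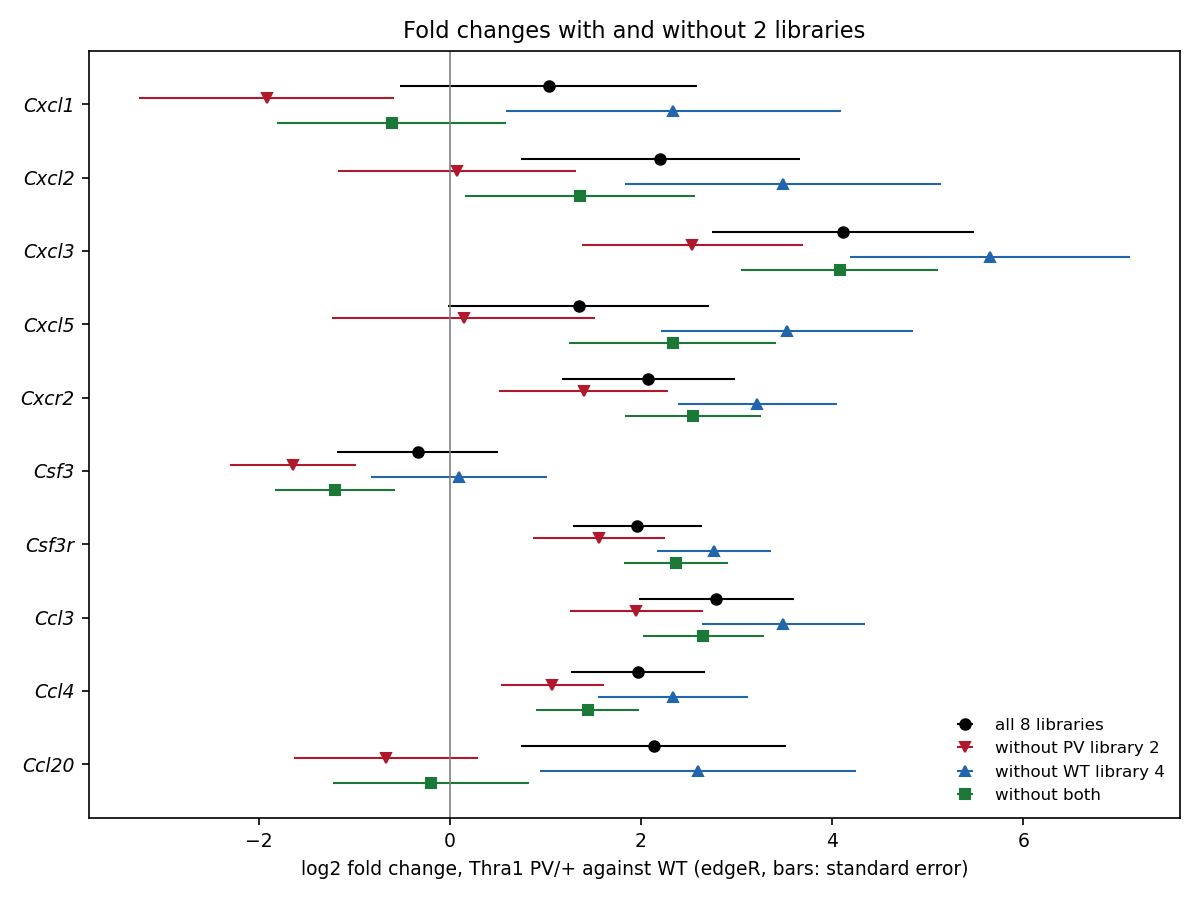
Log2 fold change of each gene from edgeR (points) with its standard error (bars), for all 8 libraries and without PV library 2, WT library 4 or both. *Cxcl1*, *Csf3* and *Ccl20* lie below 0 without PV library 2, while the other 7 genes lie above 0 in each of these fits.

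Levels of different genes were compared by TPM, which accounts for transcript length. Each library of the deposited TPM table has almost the same set of values, as quantile normalization would give. Mean TPM over the 4 WT libraries was 152 for *Cxcl5*, 41.4 for *Csf3*, 31.02 for *Cxcl1*, 24.3 for *Cxcl2*, 5.18 for *Ccl4*, 4.24 for *Csf3r*, 3.75 for *Cxcl3*, 2.46 for *Ccl3*, 2.21 for *Cxcr2* and 2.16 for *Ccl20*. Over the 4 PV libraries it was 395 for *Cxcl5*, 117 for *Cxcl2*, 63.0 for *Cxcl1*, 62.3 for *Cxcl3*, 34.0 for *Csf3*, 19.8 for *Ccl4*, 16.2 for *Ccl3*, 15.9 for *Csf3r*, 8.99 for *Cxcr2* and 7.66 for *Ccl20*. *Cxcl5* came first in both orders, and neighbours in either order overlapped across libraries. The mean of *Cxcl5* was 32.3 TPM over WT libraries without WT library 4, close to that of *Csf3* (30.5 TPM), and 190 TPM over PV libraries without PV library 2. Without WT library 4, WT means of *Cxcl1*, *Cxcl2*, *Csf3r*, *Ccl3*, *Cxcl3* and *Cxcr2* fell to 12.3, 9.67, 2.37, 1.49, 1.38 and 0.936 TPM. Those of *Ccl4* and *Ccl20* were 3.97 and 1.54 TPM, which put *Ccl20* above *Ccl3*, *Cxcl3* and *Cxcr2*. PV means of *Cxcl2*, *Cxcl3*, *Csf3* and *Cxcl1* fell to 29.2, 22.4, 13.9 and 8.55 TPM without PV library 2, which put *Cxcl1* below *Csf3r*, *Ccl4* and *Ccl3*. Those of *Csf3r*, *Ccl4*, *Ccl3*, *Cxcr2* and *Ccl20* fell to 12.3, 10.8, 9.21, 5.60 and 1.09 TPM. The order over all 8 libraries depended on PV library 2, as examined after the values were seen. Mean TPM of *Cxcl2*, *Cxcl1*, *Csf3* and *Cxcl3* was 70.7, 47.0, 37.7 and 33.0 with it and 26.4, 21.4, 29.6 and 11.7 without it, so that *Csf3* moved above *Cxcl2* and *Cxcl1*. Of the summed TPM of the 4 CXCR2 ligands, *Cxcl5* made up between 40.8% and 86.4% in a library, the largest part in 8 of 8.

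Among the shares of the 4 ligands, that of *Cxcl3* did not overlap between the genotypes. It made up 11.2%, 10.1%, 7.25% and 8.89% of the ligand TPM in PV libraries 1 to 4 and 1.77%, 3.27%, 2.94% and 1.60% in WT libraries 1 to 4. All PV libraries lay above all WT libraries. The shares of the other ligands overlapped, with *Cxcl1* at 1.0% to 13.0% in PV and 5.1% to 30.6% in WT libraries, *Cxcl2* at 10.2% to 21.2% and 5.3% to 26.9%, and *Cxcl5* at 56.1% to 79.0% and 40.8% to 86.4%. The TPM ratio of *Cxcl3* to *Cxcl5* was 0.149, 0.180, 0.0917 and 0.144 in PV libraries 1 to 4 and 0.0434, 0.0378, 0.0427 and 0.0212 in WT libraries 1 to 4. PV library 2 had the highest of the PV ratios and WT library 4 the lowest of the WT ratios. The TPM ratio of *Cxcl1* to *Cxcl2* was 0.0818, 0.594, 0.346 and 0.792 in PV libraries 1 to 4 and 1.14, 0.971, 1.51 and 1.28 in WT libraries 1 to 4, again without overlap. The ratios of WT library 2 rest on 12 counts of *Cxcl1*, 11 of *Cxcl2* and 6 of *Cxcl3*.

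The G-CSF gene and its receptor gene also kept the genotypes apart when set against each other. The TPM ratio of *Csf3* to *Csf3r* was 1.26, 3.52, 0.937 and 1.38 in PV libraries 1 to 4 and 5.84, 9.98, 25.7 and 7.50 in WT libraries 1 to 4. Each PV library lay below each WT library. The TPM ratio of *Csf3* to *Ccl3* was 0.635, 2.54, 1.59 and 5.34 in PV libraries 1 to 4 and 16.9, 9.70, 30.9 and 13.8 in WT libraries 1 to 4, with the same order of the genotypes.

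Among all 45 pairs of the 10 genes, the within-library log2 CPM ratio of 10 pairs did not overlap between the genotypes, against 7.47% of all pairs of tested genes. *Cxcl3* took part in 5 of the 10 pairs and *Csf3* in 4, so the pairs are not independent of each other. The count was 9 on deposited TPM values with a pseudocount of 1, where *Cxcl3*/*Cxcl5* and *Cxcl1*/*Cxcl3* overlapped and *Csf3*/*Ccl20* did not. It was 9 with a pseudocount of 0.1, where *Cxcl1*/*Cxcl3* and *Ccl3*/*Ccl4* overlapped and *Cxcl3*/*Ccl3* did not. On log2 CPM without PV library 2 and WT library 4, a comparison of fewer libraries, it was 12, with *Cxcl3*/*Ccl3* and *Cxcl5*/*Csf3* added. The ratios printed and the alternatives to the count were chosen after the values were seen, and no ratio was tested.

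**Figure D3:**
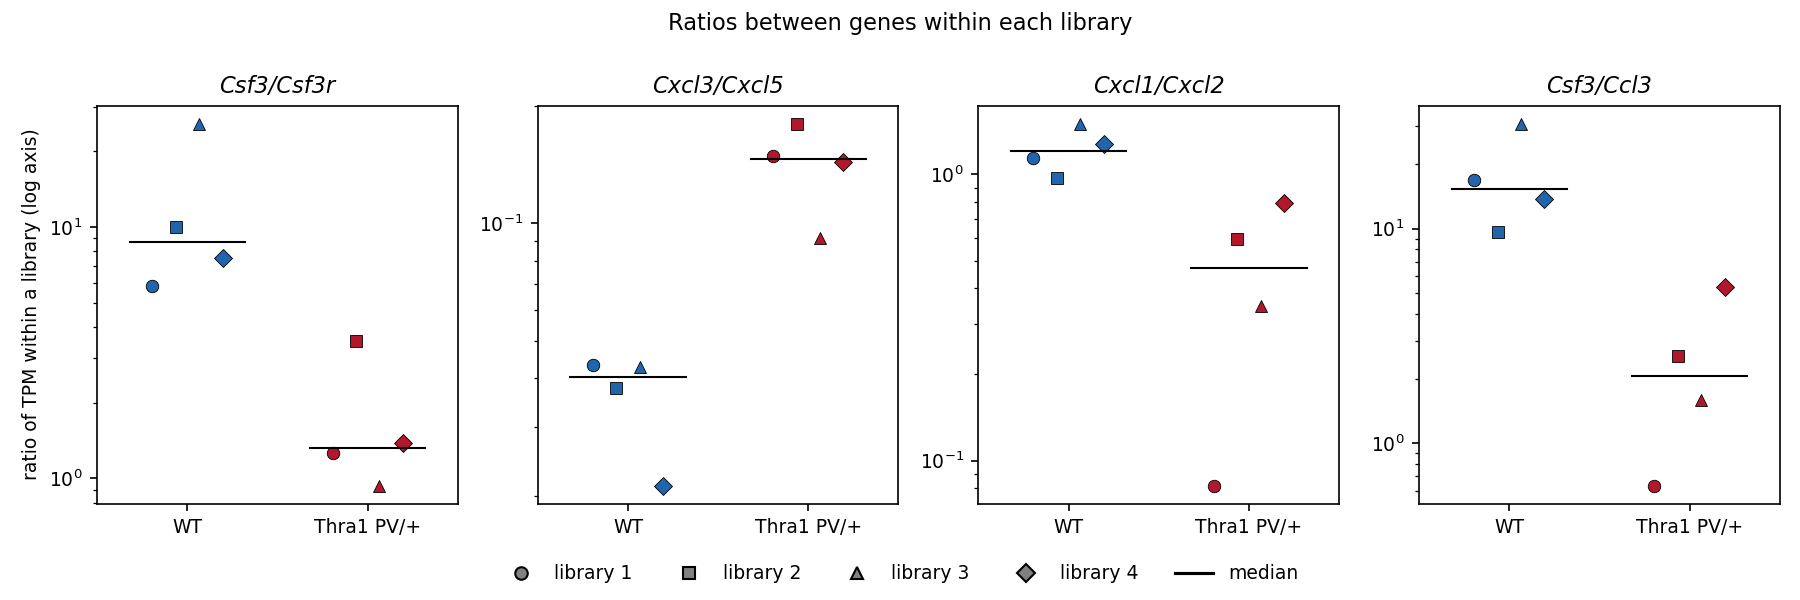
TPM ratios of gene pairs within each library (log axis), by genotype; symbols give the library number and lines the median. In each panel the 4 PV libraries lie on 1 side of the 4 WT libraries, with *Csf3* over *Csf3r* between 0.937 and 3.52 in PV and between 5.84 and 25.7 in WT endometrium.

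Across the 8 libraries the genes varied together to different degrees. Pearson's r of log2 CPM, given as a description over 8 libraries that include PV library 2 and WT library 4, was between 0.228 and 0.984 over the 45 pairs, with a median of 0.784. The highest was that of *Cxcr2* with *Csf3r*, at 0.984. *Ccl3* and *Ccl4* had an r of 0.970. The lowest was that of *Csf3* with *Csf3r*, at 0.228, which became 0.676 with the genotype mean subtracted.

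For the most abundant gene of each role by TPM, the genes with the highest r over the 8 libraries were listed. They were taken from tested genes whose mean log2 CPM was at least 2, which leaves out *Ccl3*, *Ccl4* and *Ccl20*. *Ccl4* was thus itself below the level asked of the listed genes. For *Cxcl5* they were *Tmed9* (r = 0.983), *Golt1b*, *Dcun1d1*, *Gm20186* and *Ppp4r1* (r = 0.979). For *Csf3* they were *Zcchc9* (r = 0.958), *Mphosph6*, *Pmpca*, *A530040E14Rik* and *Zc3h15* (r = 0.942). For *Ccl4* they were *Cd274* (r = 0.975), *Ripk3*, *Ppbp*, *Lilrb4a* and *G0s2* (r = 0.942). With the genotype mean subtracted, *Il1rn* (r = 0.995) came first for *Cxcl5*, with *Cxcl3* among the 5. In the same way *Fam118b* came first for *Csf3*, with *Nfkbia* among the 5, and *Ripk3* (r = 0.966) came first for *Ccl4*. All of these are the highest of 12131 or 12132 values of r over only 8 libraries, where high values are easily reached. Shared regulation was not tested.

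Markers of neutrophils, the cells that CXCR2 ligands attract, were read from the same fit. Of 16 markers, 11 passed the filter, and the edgeR test called 0 of them, against 0.924% of tested genes called higher. At an unadjusted p under 0.05, 4 were higher (*S100a8*, *S100a9*, *Trem1* and *Il1r2*), against 5.05% of tested genes, and 0 lower, against 4.72%. DESeq2 called 2 higher, *S100a9* and *Il1r2*, against 2.72% of tested genes. The median log2 fold change of the 11 was 2.32, beside -0.05 over all tested genes. *Elane*, a gene of immature neutrophils, had 0 counts in all libraries.

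*S100a9*, a calcium-binding protein abundant in mature neutrophils, stood at 79.8, 412, 165 and 21.9 CPM in PV libraries 1 to 4 and at 10.8, 0.99, 3.06 and 56.1 CPM in WT libraries 1 to 4. PV library 2 was again highest and WT library 4 the highest WT library. In edgeR's fit the log2 fold change was 3.26 (SE 1.32, adjusted p = 0.475). Its partner *S100a8* had 2.99 (SE 1.24 and adjusted p = 0.490 in edgeR). Of the 11 tested markers 8 had a log2 fold change above 0, against 43.2% of tested genes. *Ly6g*, *Mmp9* and *Hdc* had -0.24, -0.36 and -0.50, none of them called. *Ly6g* was singled out after its values were seen. Which cells of the captured tissue gave the marker transcripts was not tested.

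Summed over the 16 neutrophil markers, the level was 244, 826, 370 and 96.7 CPM in PV libraries 1 to 4 and 75.3, 286, 47.7 and 226 CPM in WT libraries 1 to 4. *S100a9* was the most abundant by TPM. In WT library 2, where most of the chemokines were lowest, *Hdc* made up 278 CPM of the sum. *Hdc* encodes histidine decarboxylase, which mast cells also express. The part of neutrophil number in the chemokine and receptor values was not tested.

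Other genes of neutrophil recruitment, a list of 40 with 35 tested, gave 0 calls by edgeR and 6 higher and 0 lower at an unadjusted p under 0.05. DESeq2 called 4 higher (*Ppbp*, *Ltb4r1*, *Csf2rb* and *Ccr1*) and gave no adjusted p for *Il17a*. Over all tested genes, edgeR called 0.924% higher and DESeq2 2.72% higher. At an unadjusted p under 0.05 in edgeR, 5.05% of tested genes were higher and 4.72% lower. Their median log2 fold change was 0.47, beside -0.05 over all tested genes. The 4 with the highest mean log2 CPM were *Nfkbia*, *Nfkbiz*, *Il1r1* and *Zc3h12a*, with log2 fold changes of 0.64, 0.12, 0.55 and 0.31. *Nfkbia*, *Nfkbiz* and *Zc3h12a* are induced by NF-kappaB and feed back on inflammatory transcripts.

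*Ppbp*, a further CXCR2 ligand of the chromosome 5 cluster (chr5:90768518-90770063) and a platelet product, was singled out after its values were seen and is not counted in the sums and shares of the 4 ligands. It stood at 52.3, 170, 36.2 and 0.68 CPM in PV libraries 1 to 4 and at 0.23, 0.60, 0.54 and 3.24 CPM in WT libraries 1 to 4. PV libraries 1, 2 and 3 lay above all WT libraries and PV library 4 lay below WT library 4, as for *Cxcl3*, *Ccl3* and *Ccl4*. Set against WT endometrium, its log2 fold change was 5.82 (SE 1.53 and adjusted p = 0.224 in edgeR), and edgeR called it without PV library 4 (log2 fold change 6.23 and adjusted p = 0.0913). The platelet genes *Pf4* and *Itga2b* had log2 fold changes of -0.32 and -0.39.

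All 4 PV libraries lay above all 4 WT libraries for 2 of the 35 recruitment genes, against 3.55% of tested genes, so that the count is near that of the whole table. The leukotriene B4 receptor of neutrophils, *Ltb4r1*, showed a log2 fold change of 2.18 (SE 0.52 and adjusted p = 0.168 in edgeR). *Itgb2*, the shared beta chain of leukocyte integrins, had 0.98 (SE 0.23 and adjusted p = 0.174 in edgeR).

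Markers of squamous epithelium differed between the captured tissues. Of 9 such genes edgeR called 7 higher in PV endometrium, against 0.924% of tested genes, with a median log2 fold change of 6.08 over the 9. All PV libraries lay above all WT libraries for 8 of 9, against 3.55% of tested genes. Their summed level was 2857, 4238, 4416 and 3275 CPM in PV libraries 1 to 4 and 8.15, 39.2, 64.7 and 23.1 CPM in WT libraries 1 to 4. *Krt5*, a keratin of basal squamous cells and the most abundant of the list, reached a log2 fold change of 7.43 (SE 1.10 and adjusted p = 0.0268 in edgeR). *Trp63*, the transcription factor of stratified epithelium, had 6.11 (SE 0.53 and adjusted p = 0.00333 in edgeR). *Krt15*, *Krt14*, *Krt13* and *Dsg3* had log2 fold changes of 7.84, 6.76, 6.08 and 4.52. The summed level of the 4 CXCR2 ligands was 183, 1420, 318 and 50.7 CPM in PV libraries 1 to 4 and 53.1, 4.37, 76.0 and 553 CPM in WT libraries 1 to 4. The part of squamous epithelium in the chemokine values was not tested.

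**Figure D4:**
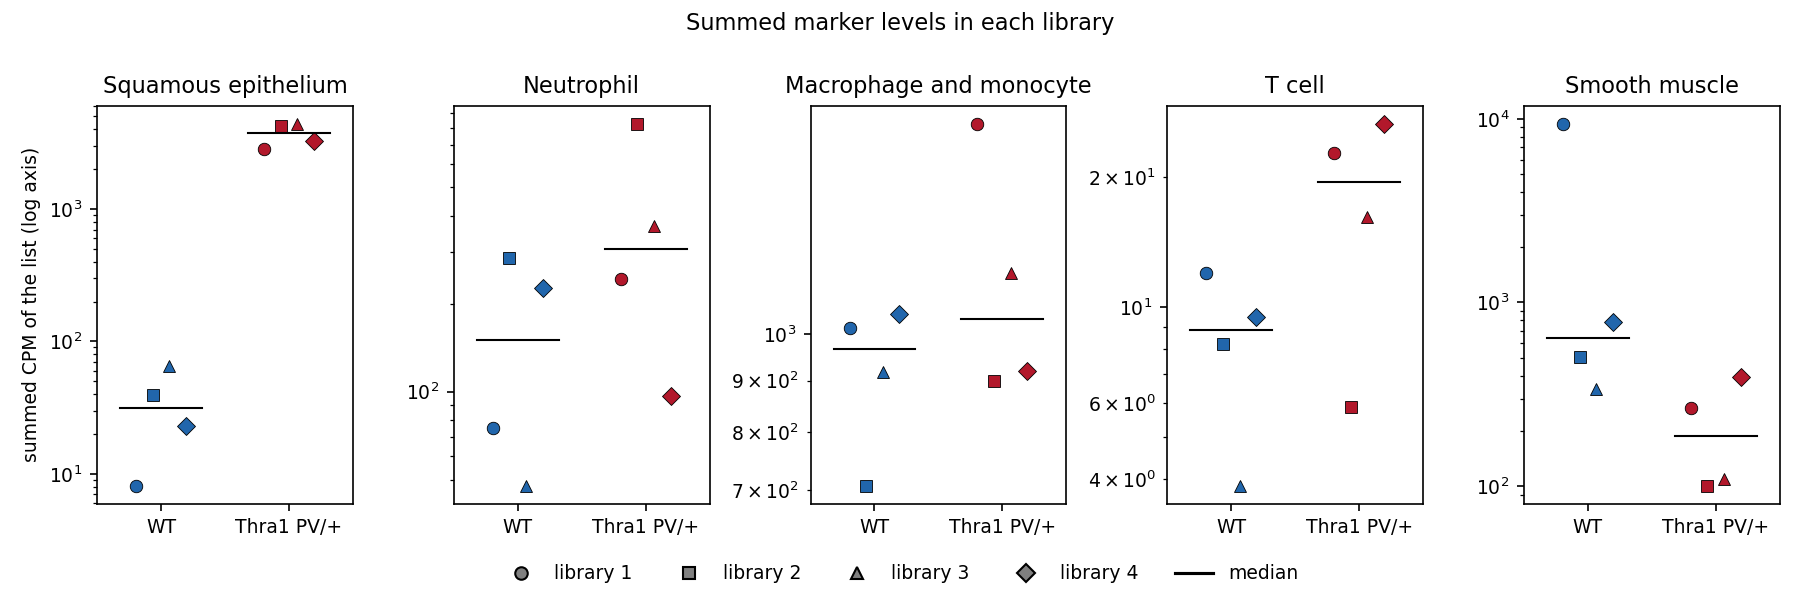
Summed CPM of marker lists (log axis) in each library; symbols give the library number and lines the median of a genotype. Squamous markers lie between 2857 and 4416 CPM in PV and between 8.15 and 64.7 CPM in WT libraries, while the neutrophil, macrophage and T cell sums overlap.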

How the data were processed

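The authors trimmed reads with Trimmomatic and quantified them with Salmon for mouse genome mm10; versions are not given in the sources used here. The deposited tables hold unnormalized estimated counts for each gene, and TPM. Sorted TPM values differed by at most 0.291 between libraries at any rank, the form quantile normalization gives. That table has 1 further column of per-sample values, which was not used.

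Here the estimated counts were rounded and edgeR 4.0.16 (R 4.3.3) was run with filterByExpr (minimum count 10, minimum total count 15), TMM normalization and genotype as the only term in the quasi-likelihood test. P-values were adjusted by Benjamini-Hochberg over 18174 genes. Standard errors are the absolute log2 fold change over the square root of F. Log2 CPM used a prior count of 2. Alternatives were DESeq2 1.42.0 (on the same filtered genes, or on all genes), limma 3.58.1 (voom with quality weights, or log2 TPM with a pseudocount of 1 or 0.1), DESeq2's size factors, library size only, 2 other filters, replicate number as a block, each library left out, and an unadjusted p under 0.05. The fitting steps were tested on simulated data.

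Symbols matched 52220 of 52325 identifiers, and identifiers without a symbol held at most 0.00896% of a library's counts. Positions are from GENCODE M21 (GRCm38, the assembly also called mm10), where 10 of the 10 genes have the same identifier version. Named genes were the 10 genes, from each list every called gene up to 6 by size of log2 fold change, then the most abundant until 4 were named, and the 5 genes most like 1 gene of each role among genes whose mean log2 CPM reached 2. The members and lists were chosen with earlier results of these data known. Exceptions are named where they occur.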

Additional observations from a re-analysis of the deposited data

Results flagged for a closer look

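The log2 CPM of each gene and the log2 of each marker list's summed CPM were examined within each genotype, 42 groups of 4 libraries, for a library far from the rest. *Ccl3* in WT library 4 stood apart, with a log2 CPM of 1.12 against -0.71 to -0.57 in the other 3 WT libraries. Chance gives about 1 such group in 20, or 2.1 of 42, and 1 was found. On this log scale, PV library 2 was not far enough from its genotype to count for any gene.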

How the results depend on the processing

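Counts were low for *Ccl20*, at 5 to 632 in a library, and in WT library 2 for *Cxcl3* (6), *Cxcl2* (11) and *Cxcl1* (12), where counting error adds to the spread between libraries. Of 184 values of the single genes under the alternatives, 169 kept their direction and their side of the threshold, 8 were called by DESeq2, with or without the filter on low counts, and 7 turned in sign. *Cxcl1* and *Cxcl2* had no adjusted p in DESeq2 and are not among the 184 for it. The 7 were *Cxcl1* with the replicate block (-0.93), without PV library 2 (-1.92) and without PV library 2 and WT library 4 (-0.61), *Ccl20* without PV library 2 (-0.67) and without both (-0.19), and *Csf3* without PV library 1 (0.03) or WT library 4 (0.10). With each library left out in turn the log2 fold change ranged from -1.92 to 2.34 for *Cxcl1*, from -1.64 to 0.10 for *Csf3* and from -0.67 to 2.62 for *Ccl20*. The cause was not tested beyond the loss of those libraries. Under the filter of at least 10 counts in every library *Cxcl3* and *Ccl20* gave no value.

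Genes called over the whole table numbered 180, and 702 with DESeq2, 791 with DESeq2 on all genes without the filter (added after the data were seen), 81 with at least 10 counts in every library, 311 with limma voom, 1775 at an unadjusted p under 0.05, 27 without both libraries and 81 to 167 with 1 library left out. The 10 genes gave 0 calls except 4 with either DESeq2 run and 5 at an unadjusted p under 0.05, the neutrophil markers 0 except 2 and 4, and the recruitment genes 0 except 4 (5 on all genes, with *Itgb2*) and 6, with 1 under library size only (*Ltb4r1*) and 0 to 1 with a library left out. The median log2 fold change of the 10 genes was 1.55 to 2.14 under other tools and filters and 0.61 to 2.99 with 1 library left out.

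Replicate numbers are shared between genotypes. Deviations of same-numbered libraries correlated at 0.27, -0.44, 0.34 and -0.16, and 1 of 4 PV libraries was most like the WT library of its number. With the replicate block 82 genes were called, 0 of the 10 genes among them, and their median log2 fold change was 1.95.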

Other observations

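Other cell types of the captured tissue were read from marker lists in the same edgeR fit, which called 0 genes of each list named here. At an unadjusted p under 0.05 in that fit, 5.05% of tested genes were higher and 4.72% lower, and DESeq2 called 2.72% higher. The 11 macrophage and monocyte markers had a median log2 fold change of 0.24, with 0 at an unadjusted p under 0.05, and summed to 1147 ± 335 CPM (SD, n = 4) over PV libraries and 922 ± 153 CPM (SD, n = 4) over WT libraries. *Lyz2* was the most abundant by TPM, with a log2 fold change of 0.24, and *Cd14*, *C1qa* and *C1qb* had 0.51, 0.18 and 0.39. The 7 T cell markers had a median of 1.25, with 5 higher and 0 lower at an unadjusted p under 0.05, and DESeq2 called 2. PV library 2, highest for the chemokines, had 5.88 CPM summed over the T cell markers, the lowest of the PV libraries, against 22.8, 16.2 and 26.6 CPM in PV libraries 1, 3 and 4. *Cd3g*, *Cd4*, *Cd2* and *Cd3e* had log2 fold changes of 1.25, 1.82, -0.83 and 1.73.

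The 6 simple epithelium markers had a median log2 fold change of -0.06. *Krt8*, *Krt19*, *Epcam* and *Cdh1* had the highest mean log2 CPM of them, and *Krt19* the highest mean TPM. The 7 stroma markers had a median of -0.78, with values from -2.01 to -0.21. *Col1a1*, *Esr1*, *Vim* and *Pgr* had the highest mean log2 CPM of them, and *Vim* the highest mean TPM. The 5 smooth muscle markers had -4.60, with 5 of 5 lower at an unadjusted p under 0.05, and DESeq2 gave an adjusted p for *Des* alone, which it called. Their sum was 9424 CPM in WT library 1 and 502, 336 and 779 CPM in the other WT libraries, beside 101 to 395 CPM in PV libraries. *Acta2* was the most abundant by TPM, and *Des*, *Myh11* and *Cnn1* had log2 fold changes of -2.22, -4.60 and -5.30. The 5 blood genes (*Hba-a2*, *Hbb-bs*, *Hba-a1*, *Hbb-bt* and *Alas2*) had a median of -1.78, with 2 lower at an unadjusted p under 0.05. They summed to 179, 57.5, 17.1 and 19.6 CPM in WT libraries 1 to 4 and to 14.6 to 29.3 CPM in PV libraries, so that WT library 1 was the highest and WT libraries 3 and 4 lay within the PV range. The 3 tested platelet genes, of which *Ppbp* and *Pf4* are also on the recruitment list, had -0.32, with *Ppbp* called by DESeq2, and the 4 endothelial genes (*Pecam1*, *Cdh5*, *Kdr* and *Tek*) -0.24.

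*Ccl2* and *Ccl7*, 2 uncalled genes of the recruitment list, had log2 fold changes below 0, at -2.30 (SE 1.25 and adjusted p = 0.615 in edgeR) and -2.44 (SE 1.11 and adjusted p = 0.532 in edgeR). Both were singled out after their values were seen. WT library 4 was the highest library for each, with *Ccl2* at 3.28, 0.47, 13.9 and 44.6 CPM and *Ccl7* at 2.86, 0.52, 9.25 and 27.1 CPM in WT libraries 1 to 4. Of the interleukin 1 genes on that list, also chosen after their values were seen except *Il1r1*, edgeR called none, and *Il1b*, *Il1rn*, *Il1a* and *Il1r1* had log2 fold changes of 2.44, 2.22, 0.97 and 0.55.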
